A study of Mus musculus with 12 samples.

Results

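A set of 10 marker genes of oligodendrocyte progenitor cells (OPCs) and of committed, premyelinating oligodendrocytes were measured by RNA-Seq in cells sorted from mouse brain for the surface lipid O1. They were the 7 progenitor genes Pdgfra, Cspg4, Vcan, Ptprz1, Lhfpl3, C1ql1 and Tnr and the 3 genes of committed cells Gpr17, Bcas1 and Enpp6. They were chosen by gene symbol as known markers of these stages, and all 10 were found among the 55376 symbols of the count table and all 10 passed the filter on low counts. The 12 samples, each made from 2 brains of C57BL/6 mice at postnatal day 40, fell into 3 groups of 4. The first group was WT. The second was Cnp-Cre:Jab1flfl, the Jab1 mutant, in which both alleles of Jab1 (gene symbol Cops5, the catalytic subunit of the COP9 signalosome) are floxed and Cre is driven by the gene Cnp, which is active from late progenitors onward in the oligodendrocyte lineage. The third was p21-/- Cnp-Cre:Jab1flfl, the double mutant, which carries the same floxed alleles and Cre and is labelled p21-/-, a knockout of p21 (gene symbol Cdkn1a, an inhibitor of cyclin-dependent kinases) that is not limited to the Cre-expressing cells. A group with p21 loss and intact Jab1 was not analysed here, so the effect of p21 loss was seen only on the Jab1-mutant background. The cells were live, single, O1+ and negative for the leukocyte marker CD45, and the study's methods describe a reanalysis of the sorted cells in which CD45+ cells were not evident and O1+ purity was incomplete.

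OPCs divide and carry the growth factor receptor PDGFRα and the proteoglycan NG2 on their surface. When they leave the cell cycle they lose both, pass through a short premyelinating stage marked by GPR17, BCAS1 and ENPP6, and then switch on the genes of myelin. O1 recognizes galactocerebroside, a lipid that appears on the surface after the progenitor stage, so a sort for O1 selects cells that have left it. Several of these genes are also used outside the lineage. NG2 is made by pericytes and smooth muscle cells of vessels, Pdgfra by fibroblasts of the meninges and vessels, and Ptprz1 by astrocytes. In samples of sorted cells, fewer cells of a type and less RNA per cell cannot be told apart.

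The counts of a sample summed to between 61485556 and 153495112, so that 1 CPM (a count scaled to the library total) stood for at least 61.5 counts. The label of the sorted cells held in WT, where 18 genes of mature oligodendrocytes summed to 50590 to 120600 CPM and 10 astrocyte genes to 5532 to 13350. In the Jab1 mutant these sums lay closer, at 10950 to 41990 and 3533 to 8650 CPM. In the double mutant they were 21160 to 63790 and 4023 to 11120 CPM. The targeted gene Cops5 was at 46.3 to 133 CPM in WT, 45.0 to 89.0 in the Jab1 mutant and 44.3 to 90.4 in the double mutant, which overlapped. Cdkn1a was at 16.0 to 85.3 CPM in WT, 379 to 637 in the Jab1 mutant and 64.7 to 103 in the double mutant, so it was below the Jab1 mutant but not below WT. These counts cover whole genes and do not separate deleted from retained exons, so they check neither deletion. Markers of other cells were present and differed between groups: the sum of 12 microglia genes was 94.9 to 263 CPM in WT, 1006 to 2482 in the Jab1 mutant and 345 to 17350 in the double mutant, where replicate 3 alone held 17350.

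In these O1+ samples most of the progenitor genes were low, and the high ones were Ptprz1 and 2 genes of committed cells, Bcas1 and Enpp6. Levels between genes were compared as CPM per kilobase of exon. In WT, Ptprz1 was at 70.6 ± 27.4 CPM per kilobase (SD, n = 4), Bcas1 at 53.1 ± 21.1 and Enpp6 at 31.1 ± 19.1. Ptprz1 encodes a receptor phosphatase, Bcas1 a protein of early myelinating cells, and Enpp6 a choline phosphodiesterase of newly formed oligodendrocytes. After these came Gpr17, a receptor that marks committed precursors, at 4.34 ± 3.02 and Cspg4, which encodes NG2, at 1.32 ± 0.797. Vcan, the proteoglycan versican, was at 1.03 ± 0.197, Lhfpl3 at 0.785 ± 0.489, Tnr (the matrix protein tenascin-R) at 0.477 ± 0.329 and C1ql1 (a secreted C1q-like protein) at 0.401 ± 0.47. Pdgfra was the lowest of the 10 in WT, at 0.179 ± 0.214 CPM per kilobase, and 3.94% of 17558 genes with a length lay below it. By the same measure 94.6% of the genes lay below Ptprz1, 92.5% below Bcas1, 87.0% below Enpp6 and 48.8% below Gpr17.

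Between neighbours in this order, the 4 WT samples of Enpp6 and of Gpr17 did not overlap (16.5 to 59.1 against 1.3 to 7.99 CPM per kilobase), and the samples of every other pair of neighbours did. The same step lay between Enpp6 and the next gene in the double mutant, where Enpp6 was at 9.24 to 20.8 and Cspg4, next in order, at 0.226 to 6.86 CPM per kilobase, and there Ptprz1 also started above Enpp6, at 25.3. In the Jab1 mutant Enpp6 at 2.49 to 18.3 overlapped Gpr17 at 1.03 to 11.9, and the step lay above Enpp6, since Ptprz1 started at 31.7. For scale, the median gene of the 18 mature oligodendrocyte genes was at 264 to 851 CPM per kilobase in WT, 32.5 to 201 in the Jab1 mutant and 103 to 376 in the double mutant. The median of 12 other OPC genes was at 1.69 to 3.46, 1.99 to 2.68 and 1.49 to 4.79 CPM per kilobase in the 3 groups. The median of 10 astrocyte genes was at 62.8 to 205, 54.5 to 115 and 56.4 to 129. It was above the mature median in Jab1-mutant replicates 1 (100 against 32.5) and 3 (115 against 59.0), and below it in every other sample.

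**Figure D1:**
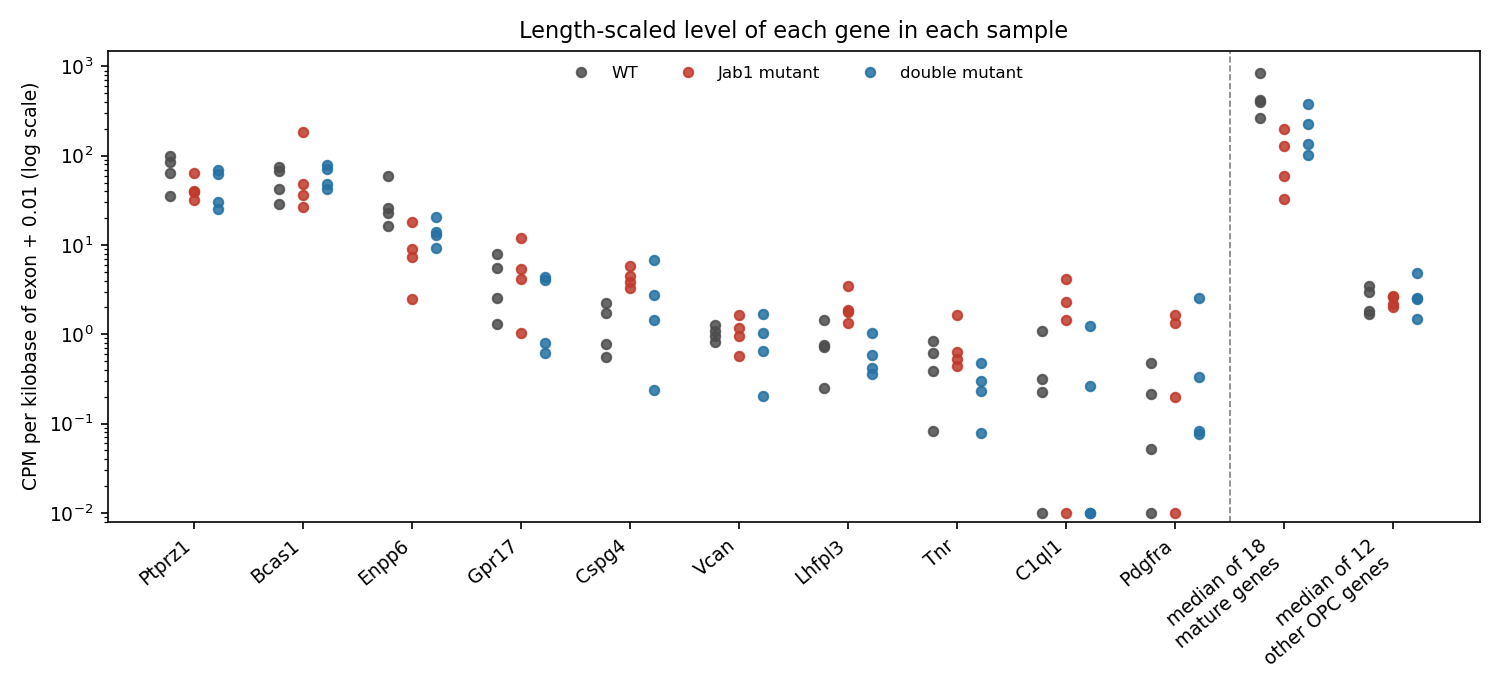
Level of each gene in each of the 12 samples as CPM per kilobase of exon on a log scale, with 0.01 added so that samples at 0 can be drawn. Genes are ordered by their WT mean, from Ptprz1 at 70.6 to Pdgfra at 0.179, and the dashed line sets off the per-sample medians of 18 mature oligodendrocyte genes and 12 other OPC genes.

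The first question was whether loss of Jab1 moved these genes. In the Jab1 mutant 1 of the 10, Cspg4, rose and 0 fell at an adjusted p below 0.05 (edgeR quasi-likelihood test, Benjamini-Hochberg adjustment over 17716 genes). Over all genes 7.64% were called, 5.19% as higher and 2.46% as lower, so 1 of 10 was near the background. On the log2 scale 8 of the 10 fold changes lay above 0 and 2 below, with a median of 0.61, against 0.02 over all genes tested. The samples of the Jab1 mutant and WT did not overlap for 1 of the 10 (Cspg4), and they did not overlap for 17.1% of all genes.

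Among the surface proteins of progenitors, Cspg4 was at 13.9, 18.3, 4.5 and 6.31 CPM in WT replicates 1, 3, 5 and 6, and at 31.4, 26.5, 47.6 and 36.2 CPM in Jab1-mutant replicates 1 to 4. Every Jab1-mutant sample was above every WT sample. The difference was 1.72 on the log2 scale (SE 0.47, 95% interval 0.68 to 2.75, adjusted p = 0.049, edgeR). It lies next to the threshold, and it was not called when any single sample other than WT replicate 3 or Jab1-mutant replicate 2 was left out, with adjusted p from 0.0774 to 0.127 in those 6 fits. In the double mutant Cspg4 was at 1.84, 11.6, 22.2 and 55.7 CPM in replicates 1, 2, 3 and 5. These samples ran from below the lowest WT sample to above the highest Jab1-mutant sample.

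Some genes of other cells that make NG2 were also higher in the Jab1 mutant. Of 10 genes of mural cells, the pericytes and smooth muscle cells of vessels, 4 were higher in the Jab1 mutant than in WT at an adjusted p below 0.05 and 0 lower (edgeR), and none of the 10 was at or below 3 counts in every sample of a group. The 4 were Rgs5, Kcnj8, Abcc9 and Vtn, named here after their values were seen, while Pdgfrb and Notch3, which also mark pericytes, had log2 differences of -0.05 and -0.10. The other 4, Acta2, Myh11, Tagln and Des, had log2 differences of 1.22 to 3.22 that did not pass the test. Their sum was 290 to 533 CPM in WT, 986 to 1772 in the Jab1 mutant and 311 to 1691 in the double mutant. Within the double mutant, the sum was 311, 812, 1414 and 1691 CPM in replicates 1, 2, 3 and 5, the same order as Cspg4. That order was not particular to mural genes. The sums of the endothelial, fibroblast, neuron and cycling lists rose in it too, and the mature oligodendrocyte sum fell. Lists of the lineage's earlier stages also rose in this order. The sum of 12 other OPC genes went from 202 to 370 CPM, and that of 12 other genes of committed cells from 571 to 793 CPM. With each value centred on its genotype mean on the log2(CPM + 1) scale, Cspg4 and the mural sum correlated over the 12 samples with r = 0.88 (exact permutation p = 0.00477, adjusted 0.0955) and rho = 0.79 (exact permutation p = 0.00586, adjusted 0.143), and r was 0.92 without the 2 samples farthest from the median of the sum. The sum of 7 fibroblast genes gave r = 0.84 (exact permutation p = 0.00398, adjusted 0.0955) and rho = 0.92 (exact permutation p = 0.000868, adjusted 0.0347), and the sum of 18 mature oligodendrocyte genes gave r = -0.74 (exact permutation p = 0.000434, adjusted 0.0174) and rho = -0.76 (exact permutation p = 0.00716, adjusted 0.143). The sum of 9 endothelial genes gave r = 0.71 (exact permutation p = 0.0131, adjusted 0.177) and rho = 0.71 (exact permutation p = 0.0129, adjusted 0.18). These adjustments cover 80 relations, the 10 genes by 8 lists, and the exact two-sided permutations were made within genotypes.

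For each 1000 CPM of the mural sum, Cspg4 was at 29.2 ± 14.0 CPM in WT (SD, n = 4), 29.9 ± 11.1 in the Jab1 mutant and 17.2 ± 11.4 in the double mutant. The WT and Jab1-mutant values overlapped widely, from 15.5 to 46.5 and from 20.4 to 46.0. Two-sided exact permutation tests gave p = 0.857 for the Jab1 mutant against WT, 0.171 for the double mutant against WT and 0.114 between the mutants (adjusted 0.386 to 0.857). This ratio and those of Ptprz1 and Enpp6 below were chosen after the values were seen, so these tests are not independent evidence, and the adjustment covers the 9 tests of the 3 ratios. With 4 samples per group, even full separation in a single comparison could not have passed after this adjustment. A ratio that did not pass is therefore not shown to be equal between groups. The part of mural cells in the level of Cspg4 was not tested.

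Pdgfra, the receptor for PDGF-A that keeps progenitors dividing, was at 0.363, 1.78, 4.14 and 0 CPM in WT replicates 1, 3, 5 and 6, and at 11.5, 0, 1.63 and 14.2 CPM in the Jab1 mutant. Jab1-mutant replicates 1 and 4 were high, and replicates 2 and 3 lay within the WT range. The difference of 2.12 on the log2 scale (SE 1.79) had an interval from -1.79 to 6.04 and did not pass the test (adjusted p = 0.538, edgeR). In the double mutant it was at 0.577, 2.8, 22.5 and 0.628 CPM in replicates 1, 2, 3 and 5, so a single sample held most of the level, and the other 3 lay within the WT range. A count of 0 in WT replicate 6 and in Jab1-mutant replicate 2 allows levels up to 0.0325 and 0.025 CPM, as 3 counts of the sample's total, which covers counting error only.

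The double-mutant sample with the highest Pdgfra was also the one with the highest microglia sum, 17350 CPM. Over the 12 samples, centred on genotype, Pdgfra and the microglia sum gave r = 0.69 (exact permutation p = 0.0255, adjusted 0.291) and rho = 0.65 (exact permutation p = 0.0401, adjusted 0.321), and r was 0.50 without the 2 farthest samples. The 12 microglia genes were all higher in the Jab1 mutant at an adjusted p below 0.05 (edgeR). Dpt was not tested for lack of counts, and of the other 6 fibroblast genes 0 passed the test, with a median log2 fold change of 2.51. Pdgfra and the fibroblast sum gave r = 0.48 (exact permutation p = 0.17, adjusted 0.59) and rho = 0.49 (exact permutation p = 0.163, adjusted 0.565), and r was 0.57 without the 2 farthest samples. Whether other cells contributed to the level of Pdgfra was not tested.

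Ptprz1, a receptor phosphatase for pleiotrophin and other ligands, was the highest of the 10 in WT. It was at 643, 986, 353 and 842 CPM in WT replicates 1, 3, 5 and 6, at 405, 391, 648 and 317 CPM in the Jab1 mutant and at 302, 693, 632 and 254 CPM in the double mutant. Its samples overlapped between all 3 groups. The log2 difference of the Jab1 mutant from WT was -0.68 (interval -1.50 to 0.14, adjusted p = 0.315, edgeR). The sum of 10 astrocyte genes was 5532 to 13350 CPM in WT, 3533 to 8650 in the Jab1 mutant and 4023 to 11120 in the double mutant, and 0 of the 10 passed the test. Within genotypes Ptprz1 and that sum gave r = 0.76 (exact permutation p = 0.0132, adjusted 0.177) and rho = 0.74 (exact permutation p = 0.0247, adjusted 0.261), and r was 0.81 without the 2 farthest samples. For each 1000 CPM of the astrocyte sum, Ptprz1 was at 72.4 ± 11.0 CPM in WT, 70.2 ± 22.3 in the Jab1 mutant and 58.8 ± 17.8 in the double mutant (SD, n = 4). Exact permutation tests, with the limit given for the Cspg4 ratio, had adjusted p from 0.514 to 0.857 in the 3 comparisons. The part of astrocytes in its level was not tested.

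**Figure D2:**
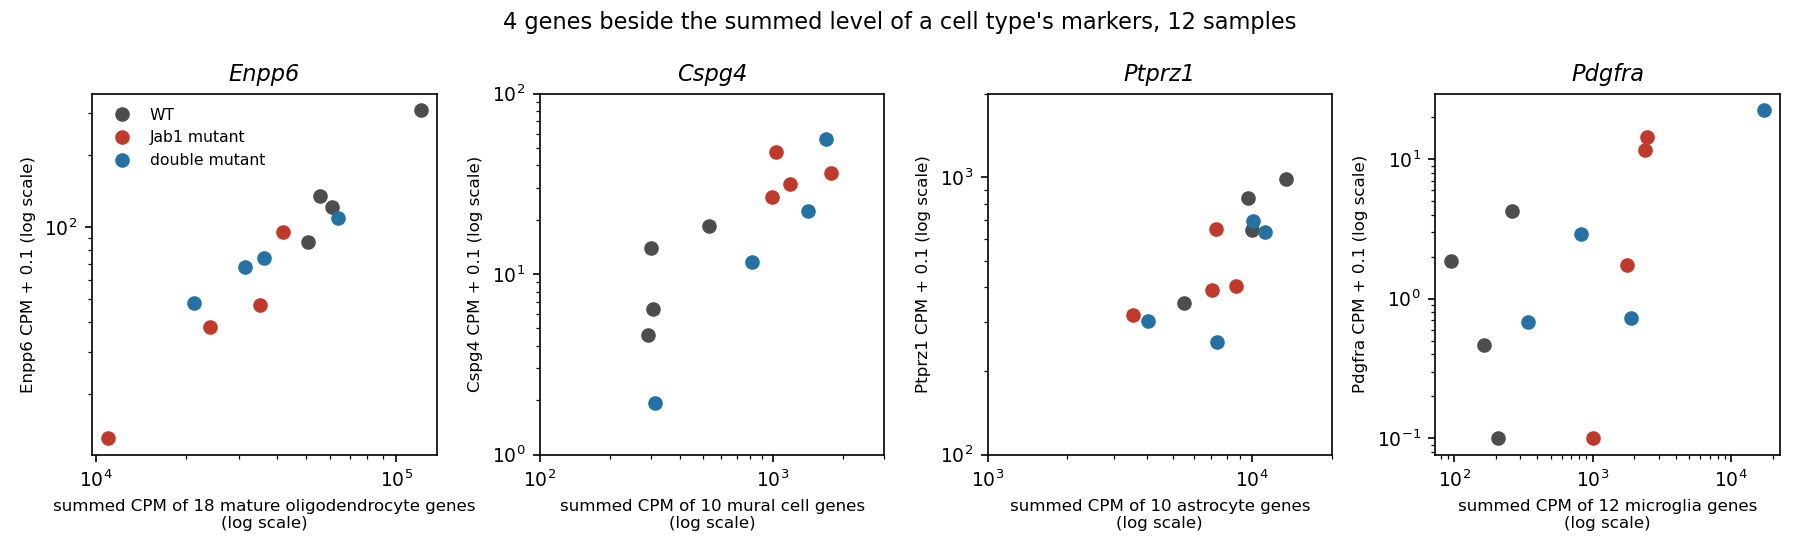
Enpp6, Cspg4, Ptprz1 and Pdgfra (CPM + 0.1, log scale) beside the summed CPM of 18 mature oligodendrocyte, 10 mural, 10 astrocyte and 12 microglia genes (log scale), 1 point per sample. Enpp6 and the mature sum lie along a line in all 3 genotypes, and the double-mutant sample at 17350 CPM of microglia genes has the highest Pdgfra.

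Vcan varied least in WT, at 12.8, 14.5, 10.8 and 17.0 CPM, and was at 12.7, 21.9, 7.6 and 15.7 CPM in the Jab1 mutant. The means were 13.8 ± 2.65 and 14.5 ± 5.96 CPM (SD, n = 4), and the log2 difference of 0.07 had an interval from -0.87 to 1.01. In the double mutant it was at 2.56 to 22.2 CPM.

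Lhfpl3, a tetraspan membrane protein gene used as an OPC marker, was at 0.779, 2.29, 4.6 and 2.43 CPM in WT and at 5.91, 4.24, 5.64 and 11.1 CPM in the Jab1 mutant. Only WT replicate 5 reached into the Jab1-mutant range. The log2 difference was 1.41 (SE 0.73, adjusted p = 0.284, edgeR). C1ql1 was at 0.317, 1.59, 0.455 and 0 CPM in WT and at 6.17, 3.38, 0 and 2.13 CPM in the Jab1 mutant, where 3 samples were above all of WT and replicate 3 had no count (up to 0.0442 CPM). Its log2 difference of 2.30 had an interval from -1.49 to 6.09. Tnr was at 0.879, 10.3, 4.67 and 7.49 CPM in WT and at 20.1, 5.26, 6.32 and 7.53 CPM in the Jab1 mutant, where replicate 1 stood above the rest (log2 difference 0.75, interval -0.89 to 2.39).

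Among the genes of committed cells, Enpp6 had the lower level in the Jab1 mutant. It was at 121, 86.2, 309 and 135 CPM in WT replicates 1, 3, 5 and 6, at 47.1, 95.6, 13.0 and 38.2 CPM in Jab1-mutant replicates 1 to 4, and at 109, 73.9, 68.0 and 48.3 CPM in double-mutant replicates 1, 2, 3 and 5. Of the 4 Jab1-mutant samples 3 were below all of WT, and replicate 2 lay inside the WT range. The log2 difference of the Jab1 mutant from WT was -1.75 (SE 0.57, interval -2.99 to -0.50), with an unadjusted p of 0.0101 and an adjusted p of 0.0896 in edgeR, which misses the threshold. It passed with DESeq2 (-1.77, adjusted p = 0.00847) and with limma-voom (-2.06, adjusted p = 0.0151). These tools called more genes in all, 2689 and 1921 of 17716, against 1354 with edgeR. For the double mutant against WT the log2 difference was -1.14 (SE 0.43, interval -2.08 to -0.19, adjusted p = 0.308, edgeR).

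Enpp6 followed the genes of mature oligodendrocytes. Their sum was 50590 to 120600 CPM in WT, 10950 to 41990 in the Jab1 mutant and 21160 to 63790 in the double mutant, and of the 18 genes 9 were lower in the Jab1 mutant at an adjusted p below 0.05 and 0 higher (edgeR), with a median log2 fold change of -2.07. The highest Enpp6 and the highest mature sum were in the same sample, WT replicate 5, and the lowest of both were in Jab1-mutant replicate 3. Centred on genotype, the pair correlated over 12 samples with r = 0.95 (exact permutation p = 0.000145, adjusted 0.0116) and rho = 0.94 (exact permutation p = 0.000217, adjusted 0.0174), and r was 0.85 without the 2 farthest samples. Of 80 relations, this was 1 of 2 with an adjusted p below 0.05 for r, the other being Cspg4 and the same sum. For each 1000 CPM of the mature sum, Enpp6 was at 2.17 ± 0.395 CPM in WT, 1.6 ± 0.482 in the Jab1 mutant and 2.05 ± 0.25 in the double mutant (SD, n = 4). These ratios overlapped between all groups. Two-sided exact permutation tests, with the limit given for the Cspg4 ratio, gave p = 0.114 for the Jab1 mutant against WT. They gave 0.657 for the double mutant against WT and 0.143 between the mutants (adjusted 0.386 to 0.845).

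Gpr17 was at 6.74, 41.5, 28.8 and 13.1 CPM in WT, at 61.9, 21.6, 5.36 and 28.2 CPM in the Jab1 mutant and at 21.2, 3.15, 22.9 and 4.06 CPM in the double mutant. It varied over a range of 6.16 times among WT samples and 11.5 times among Jab1-mutant samples, and the groups overlapped. The log2 difference of the Jab1 mutant from WT was 0.38 (interval -1.13 to 1.89). Bcas1 was at 207, 88.3, 228 and 132 CPM in WT, at 571, 113, 82.6 and 148 CPM in the Jab1 mutant and at 220, 244, 150 and 133 CPM in the double mutant. Jab1-mutant replicate 1 was above every other sample, and the log2 difference of 0.48 (interval -0.79 to 1.74) became -0.52 without that replicate.

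**Figure D3:**
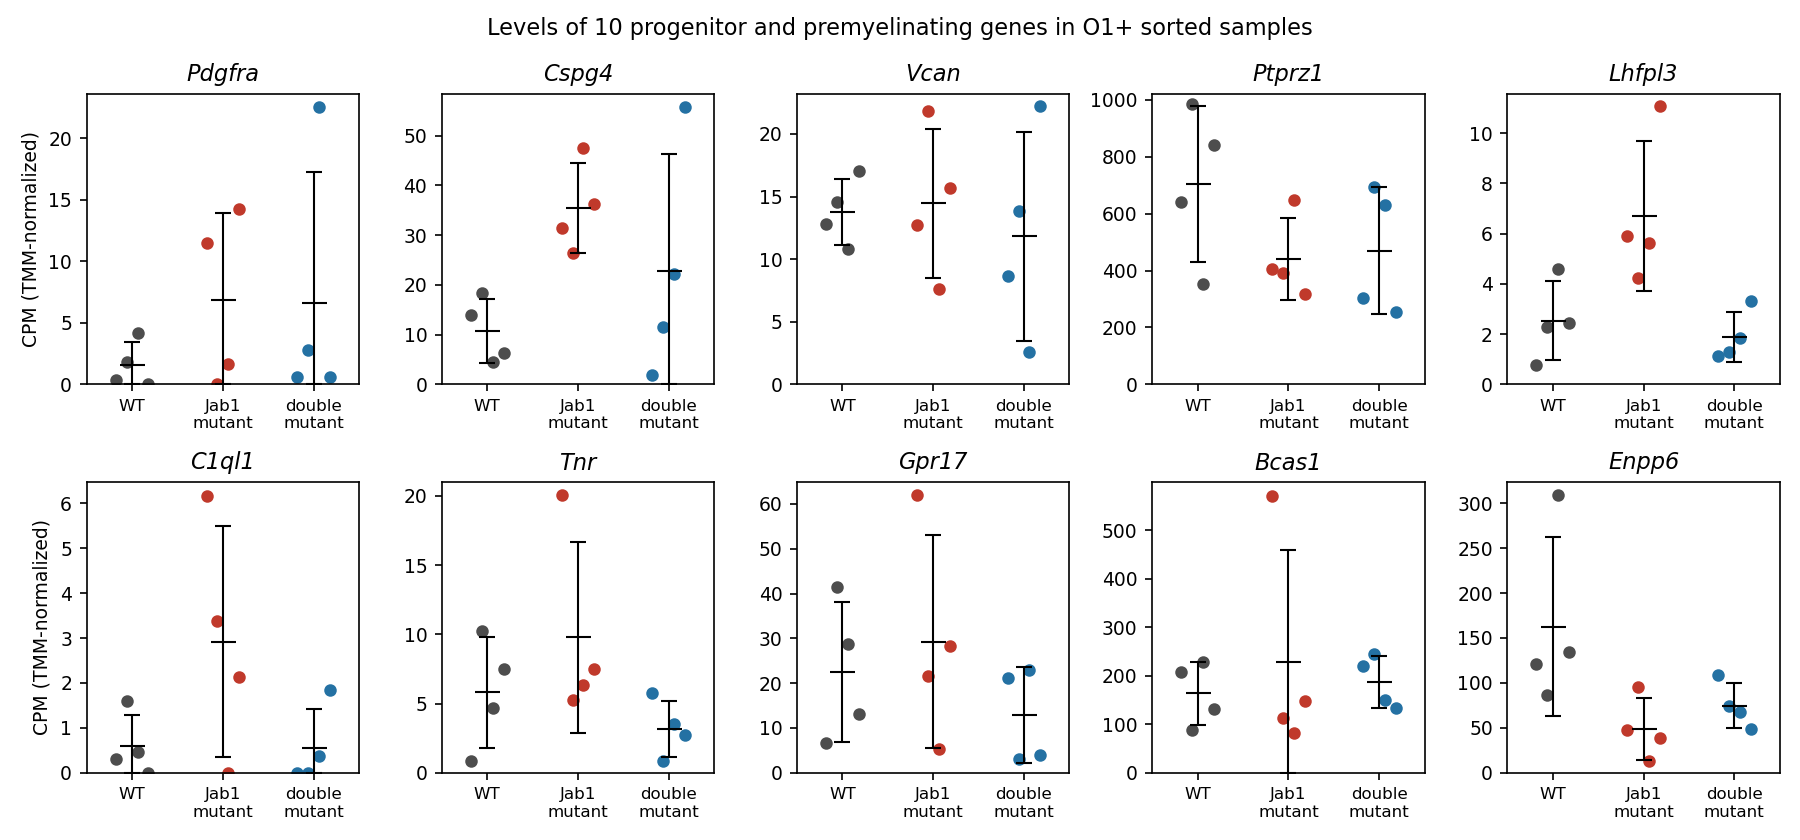
Level of the 10 genes in CPM in each sample by genotype, with the mean (long tick) and SD (bar, stopped at 0 where it would go below). Cspg4 is the gene whose 4 Jab1-mutant samples, at 26.5 to 47.6 CPM, all lie above WT, at 4.5 to 18.3 CPM.

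For the double mutant the question was whether the genes differed from WT and from the Jab1 mutant. Against WT, 0 of the 10 were called (edgeR), 1 had an unadjusted p below 0.05 (Enpp6), and 0.192% of all genes were called. DESeq2 and limma-voom also called 0 of the 10. Over all genes, edgeR called 34, DESeq2 862 and limma-voom 47, and edgeR called 1 to 274 with 1 sample left out, the 274 without double-mutant replicate 1. Of the log2 fold changes 3 lay above 0 and 7 below, with a median of -0.33 against 0.0 over all genes. The samples of 0 of the 10 were free of overlap, against 8.1% of all genes. This comparison shares its WT samples with that of the Jab1 mutant, so the values of both are not independent. They were 2.07 and 2.12 for Pdgfra, 1.08 and 1.72 for Cspg4, -0.43 and 1.41 for Lhfpl3, -0.88 and 0.75 for Tnr, -0.83 and 0.38 for Gpr17 and -1.14 and -1.75 for Enpp6, each as the log2 difference of the double mutant and of the Jab1 mutant from WT.

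The direct comparison of the double mutant with the Jab1 mutant called 0 of the 10 (edgeR), 1 of which had an unadjusted p below 0.05, and 0.0% of all 17716 genes, of which 885 had an unadjusted p below 0.05. DESeq2 called 87 genes and limma-voom 1, none of them among the 10. The fold changes of 8 of the 10 lay below 0 and 2 above, with a median of -0.46 against 0.02 over all genes. Lhfpl3 was at 1.11, 1.3, 1.84 and 3.33 CPM in double-mutant replicates 1, 2, 3 and 5, all below the lowest Jab1-mutant sample of 4.24 CPM, and was the 1 gene of the 10 without overlap, against 3.22% of all genes. Its log2 difference was -1.82 (SE 0.76, interval -3.51 to -0.14, unadjusted p = 0.0365, adjusted p = 0.968, edgeR). Tnr, at 5.74, 0.84, 3.5 and 2.7 CPM in the double mutant, differed by -1.62 (interval -3.32 to 0.09), and C1ql1, at 0, 0, 0.37 and 1.83 CPM, by -2.40 (interval -7.16 to 2.35). Enpp6 had a difference of 0.62 (interval -0.52 to 1.76) and Cspg4 of -0.63 (interval -2.27 to 1.01). These intervals are wide, and a difference of 1 on the log2 scale in either direction lies inside that of Cspg4.

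**Figure D4:**
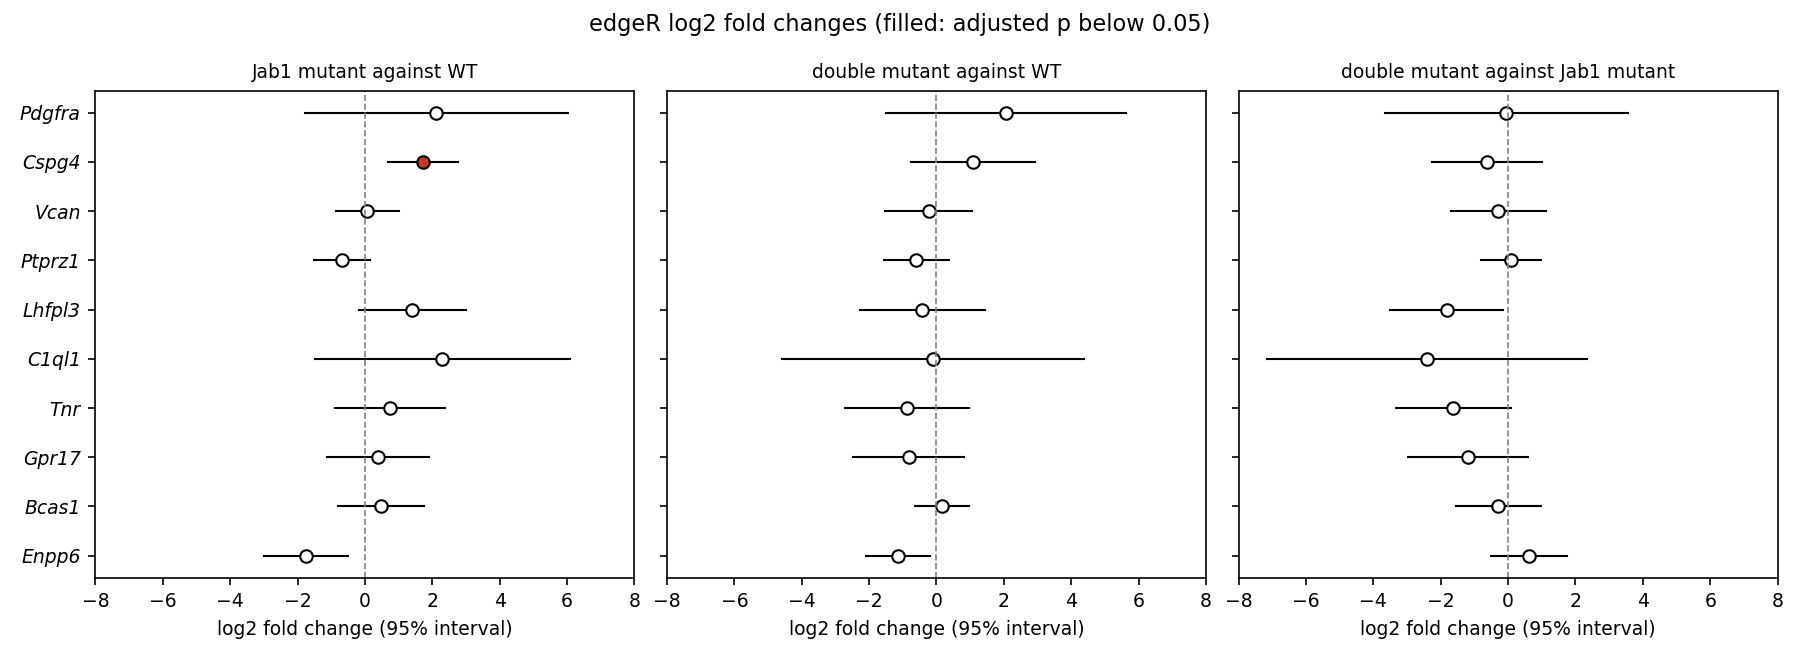
Log2 fold changes of the 10 genes from edgeR with 95% intervals, in the 3 comparisons, with a filled point where the adjusted p is below 0.05. The filled point is Cspg4 in the Jab1 mutant against WT, at 1.72, and the widest intervals are those of Pdgfra and C1ql1.

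Other genes of the same stages gave a similar count of calls. Of 12 other OPC genes, 0 were called in the Jab1 mutant against WT (edgeR) and 1 had an unadjusted p below 0.05, with a median log2 fold change of -0.40. Their fold changes lay above 0 for 5 and below 0 for 7. For the 7 progenitor genes among the 10, the median was 1.41, with 6 above 0 and 1 below. The smallest p-values were those of Pcdh15, a protocadherin (0.435 against 10.1 CPM, log2 difference -4.54, SE 1.30, adjusted p = 0.0573), Matn4, a matrilin of the matrix (-1.80, adjusted p = 0.258), and Sox6, a transcription factor of progenitors (-0.95, adjusted p = 0.279). Their mean levels were lower in the Jab1 mutant, while the mean of Cspg4 was higher. For Pcdh15 and Matn4 every Jab1-mutant sample was below every WT sample, and for Sox6 the samples overlapped. Of all genes, 17.1% had no overlap in either direction. Of 12 other genes of committed cells, 11 were tested and 1 rose, Bmp4, a growth factor gene of newly committed cells, from 4.77 to 19.5 CPM (log2 difference 2.03, SE 0.50, adjusted p = 0.0334, edgeR), with a median over the tested genes of 0.46. Bmp4 was no longer called in 7 of the 8 fits that left out 1 sample.

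A list of 10 genes for ligands and matrix partners of these surface proteins were examined as well. In the Jab1 mutant 1 of them fell, Adgrb3, an adhesion receptor that binds C1q-like proteins, from 33.1 to 10.3 CPM (log2 difference -1.68, SE 0.39, adjusted p = 0.0247, edgeR), and 8 of the 10 fold changes lay below 0, with a median of -0.85. The call was lost without WT replicate 1 or 3 and without Jab1-mutant replicate 3 or 4. Pdgfa, the ligand of PDGFRα, was at 70.7 against 58.1 CPM and Ptn, the pleiotrophin gene and a ligand of Ptprz1, at 861 against 913 CPM; neither passed the test. In the double mutant, 0 genes of these 3 lists were called against WT or against the Jab1 mutant (edgeR), with unadjusted p below 0.05 for 2 partners against WT and for 0 genes in the other cases. Of 8 genes of cycling cells, 1 rose in the Jab1 mutant and 0 fell (edgeR). This was Mki67, the Ki-67 antigen gene, named after its values were seen, with a log2 difference of 2.30 (SE 0.53, adjusted p = 0.0253); the call was lost in 4 of the 8 fits that left out 1 sample. The sum of the 8 was 22.6 to 151 CPM in WT, 98.7 to 301 in the Jab1 mutant and 67.8 to 249 in the double mutant.

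Of the 45 pairs of these 10 genes, Tnr and Gpr17 had the highest Pearson r of log2(CPM + 1) over the 12 samples, at 0.78, and Cspg4 and Enpp6 the lowest, at -0.75. The 6 pairs among Lhfpl3, C1ql1, Tnr and Gpr17, grouped after the values were seen, had r from 0.36 to 0.78. The 3 genes of committed cells had lower values with each other (0.25 for Gpr17 and Enpp6, 0.26 for Bcas1 and Enpp6, 0.27 for Gpr17 and Bcas1), and Pdgfra and Cspg4 at 0.26. These values describe 12 samples that share their libraries and genotypes. Over all genes tested, those most like Enpp6 were Plin3 (r = 0.97), Lamp1 (0.96) and Gatm (0.96). Those most like Gpr17 were Nfs1 (0.85), Zfp825 (0.84) and Dhx38 (0.83), and those most like Pdgfra were Fcgr4 (0.89), an Fc receptor gene of myeloid cells, H2-Q5 (0.88) and Rnpep (0.87).

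In the GRCm38 annotation all 10 are protein-coding genes. Cspg4 spans chromosome 9 from 56865033 to 56899870 on the plus strand and Enpp6 chromosome 8 from 46986887 to 47096762 on the plus strand, and neither shares exon bases with another gene, as is also true of Vcan, Ptprz1 and C1ql1. Pdgfra (chromosome 5, 75152292 to 75198215, plus strand) shares exon bases with a gene on the other strand and with a microRNA gene on its own strand. Lhfpl3, Tnr, Gpr17 and Bcas1 each share some with 1 or more genes on the other strand. Whether the reads were counted by strand, and how reads in shared exon bases were assigned, is not given in the sources used here. The values of these 5 genes may therefore include reads of their neighbours or lack some of their own.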

How the data were processed

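RNA-Seq of sorted oligodendrocytes was available for 12 samples, grouped by the genotypes in the labels, with replicates numbered 1, 3, 5 and 6 (WT), 1 to 4 (Jab1 mutant) and 1, 2, 3 and 5 (double mutant). Per the study's methods, SMART-Seq v4 libraries were sequenced as paired ends and trimmed with Trimmomatic 0.32. STAR 2.5.3a aligned the reads to GRCm38, and featureCounts assigned them to GENCODE basic genes. The values deposited by the authors are raw counts per gene symbol, not normalized. No batch or date is given in the labels. There were 0 columns of other samples and 0 entries without a gene.

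CPM values were computed with TMM factors from all 12 samples. For levels between genes they were divided by the exon length in GENCODE release M21, to which 54402 symbols (98.2%) were matched. Each pair of genotypes was compared on its own 8 samples by the quasi-likelihood test of edgeR 4.0.16 (in R 4.3.3). Genes entered when 4 or more of all 12 samples reached 1 CPM, which left 17716, and p-values were adjusted by the Benjamini-Hochberg method with a threshold of 0.05. It was checked on simulated counts. Correlations with marker sums used log2(CPM + 1) centred on genotype and all 13824 rearrangements within genotypes. The alternatives were DESeq2 1.42.0, limma-voom with quality weights (limma 3.58.1), other scalings, filters and sample sets, a replicate block, and each sample left out. Within each genotype, counts differed between every pair of samples beyond counting noise (smallest chi-square 211 times its degrees of freedom). Such a difference does not by itself show that samples came from separate animals. Each sample was counted as 1 replicate because the study's methods give 2 different brains for each. The p-values measure the spread between these pools, which includes sorting and library preparation.

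The 10 genes, the lists and the alternatives were chosen with earlier results of these data known. All 10 genes are described. Of the lists of other OPC, committed-cell and partner genes, those called are named, or else the 3 with the smallest p, and the levels of Pdgfa and Ptn were added because they are ligands of 2 of the 10. For Pdgfra, Gpr17 and Enpp6 the 3 genes with the highest r are named. Genes of the marker lists appear as sums and counts, except where the text says otherwise. Lists for neurons and endothelial cells were also counted: 0 of 10 and 6 of 9 were called, all higher, in the Jab1 mutant (edgeR). The Tmem2 entry of the committed list was found under its current symbol Cemip2.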

Additional observations from a re-analysis of the deposited data

Results flagged for a closer look

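In 30 groups of 4 samples (10 genes in 3 genotypes), 3 groups held a sample far from the other 3 by Dixon's ratio, where chance gives about 1 in 20. Pdgfra was at 22.5 CPM in double-mutant replicate 3, against 0.577 to 2.8 CPM in the other 3, and this sample also had the highest microglia sum of the 12, at 17350 CPM. Without it, the log2 difference of the double mutant from WT was -0.25 in place of 2.07.

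Jab1-mutant replicate 1 held the other 2. Tnr was at 20.1 CPM there, against 5.26 to 7.53 CPM in the other 3 Jab1-mutant samples, and Bcas1 was at 571 CPM, against 82.6 to 148 CPM. Gpr17 and C1ql1 were also highest there among the Jab1-mutant samples, at 61.9 and 6.17 CPM. Without this sample the log2 difference of the Jab1 mutant from WT was 0.13 for Tnr and -0.52 for Bcas1. What set these samples apart was not tested.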

How the results depend on the processing

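Over the 10 genes, the 3 comparisons and all alternatives, 451 of 498 log2 fold changes kept their direction and side of the threshold, 10 lost the call (all of Cspg4), 4 gained it (all of Enpp6, Jab1 mutant against WT) and 33 changed sign. The number of the 10 called in the Jab1 mutant against WT was 1; it was 2 with DESeq2, with limma-voom and with a mean of at least 10 CPM (which drops 4 of the 10), 1 with DESeq2 size factors or upper-quartile factors in edgeR, 0 with no filter or with all 12 samples in one fit, and 0 to 2 with 1 sample left out. It was 0 with a replicate block, on 8 or on 12 samples. Over all genes in that comparison, edgeR called 1354 of 17716, DESeq2 2689 and limma-voom 1921. With a mean of at least 10 CPM edgeR called 1439 of 10447, with no filter 903 of 36070, and on all 12 samples 941. It called 1356 with DESeq2 size factors and 1375 with upper-quartile factors. With a replicate block it called 660 on 8 samples and 79 on 12, and with 1 sample left out 678 to 1863. Samples with the same number did not deviate together (r from -0.188 to 0.083 in 8 pairs), so the numbers were not taken to pair them. In both double-mutant comparisons 0 of the 10 were called under every alternative run.

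Signs changed in differences near 0 or with wide intervals; the cause was not tested. With limma-voom, Vcan in the Jab1 mutant against WT was -0.14, and between the mutants Pdgfra was 0.65, Ptprz1 -0.09 and Bcas1 0.02. With no filter, Vcan was -0.03. With a replicate block on 8 samples, Vcan was -0.47 and C1ql1 -1.24 in the Jab1 mutant against WT, and Pdgfra 3.56 and Bcas1 0.24 between the mutants; on 12 samples, Vcan was -0.15 and Pdgfra 1.04. With 1 sample left out, the Jab1 mutant against WT ranged from -0.21 to 0.28 for Vcan, -0.29 to 0.84 for Gpr17 and -0.52 to 0.76 for Bcas1. The double mutant against WT ranged from -0.25 to 3.24 for Pdgfra, -0.74 to 0.11 for Vcan, -0.85 to 0.06 for Lhfpl3, -2.25 to 1.08 for C1ql1 and -0.04 to 0.38 for Bcas1. Between the mutants the ranges were -2.35 to 0.62 for Pdgfra, -0.79 to 0.06 for Vcan, -0.15 to 0.34 for Ptprz1 and -0.57 to 0.72 for Bcas1.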
